A study of Homo sapiens with 6 samples.

Results

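The genes described here make cholesterol and fatty acids and sense or move cholesterol. They were taken by symbol as 34 of the 20494 genes in a table of RPKM values (read numbers divided by gene length and by library size), and fall into 4 groups by pathway step: 8 genes of the mevalonate arm, 10 that lead on to cholesterol, 7 that sense or move sterols and 9 of fatty acid synthesis. RNA was sequenced in 6 libraries, 1 sample each, of the human cell line PA-1, which was derived from a teratocarcinoma of the ovary. The Wnt3a library came from cells given 200 ng of the ligand Wnt3a for 16 h. The RIPK1, RIPK2, RIPK3 and RIPK4 libraries came from cells transfected for 48 h with 8 µg of plasmid for the receptor-interacting protein kinase in question, and the Vector library from cells given the same amount of empty pCDNA3.1 for the same time. The label of the Wnt3a library also stands under the heading of transfection, and no plasmid is stated for it, so that ligand, plasmid and time cannot be told apart between Wnt3a and Vector. All cells were of the same line and grown in the same medium with serum. No group has a replicate. Hence no difference below has a replicate check, and no SD or p-value is given.

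Cholesterol is built from acetyl-CoA through mevalonate, isoprenoid pyrophosphates, squalene and lanosterol. Many of its enzymes share the transcription factor SREBP-2, encoded by SREBF2, while SREBP-1, encoded by SREBF1, acts more on fatty acid synthesis. Both factors are made as membrane proteins of the endoplasmic reticulum. The escort protein SCAP carries them to the Golgi to be cleaved when sterols are low, and INSIG proteins hold SCAP back when sterols are high. The sterol regulatory element is the DNA sequence they bind, often beside sites for NF-Y and Sp1.

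The libraries held 17.2 M to 19.5 M reads. All 34 genes reached a mean of 1 RPKM over the 6 libraries, as did 11881 genes in all, and their reads per library ran between 44 and 15705. The transfected kinases were highest in their own libraries: RIPK2 had 27.4 RPKM in its library and 11.8 RPKM in Vector, RIPK3 had 61.4 and was listed at 0 in Vector, RIPK4 had 17.9 and was listed at 0, and RIPK1 had 16.6 RPKM against 12.8 RPKM in Vector. Among markers of pluripotent cells, LIN28A (213 to 392 RPKM), SOX2 (48.1 to 149) and SALL4 (37.7 to 55.2) were present in every library, and TDGF1 was listed at 0. The adipocyte markers ADIPOQ, PLIN1 and LEP and the liver gene CYP7A1 stayed below 0.08 RPKM in every library, and ALB was listed at 0. The liver gene APOA1 had 3.81 to 5.54 RPKM. The endothelial marker PECAM1 (21.6 to 32.3 RPKM) and the collagen gene COL1A1 (28.1 to 83.0) were present, whereas DCN, a fibroblast marker, was listed at 0. Of the other endothelial markers, CDH5 had 4.21 to 11.5 RPKM and VWF 0.0627 to 0.128 RPKM.

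Promoter sequence helps to place the genes that follow, so 5 members are shown: SREBF2, which encodes the factor itself, and HMGCS1, INSIG1, CYP51A1 and LSS, known SREBP-2 targets that differ below in how they stood against Vector. Each line gives the 200 bases before the start site, 5′ to 3′ on the strand of the gene, from RefSeq on build GRCh38.p14. Capitals mark matches on either strand to 3 motifs: the core of the sterol regulatory element (TCACNCCAC), the NF-Y box (CCAAT, which reads ATTGG on the other strand) and the Sp1 box (GGGCGG, which reads CCGCCC on the other strand).
SREBF2, chr22:41832905-41833104, plus strand: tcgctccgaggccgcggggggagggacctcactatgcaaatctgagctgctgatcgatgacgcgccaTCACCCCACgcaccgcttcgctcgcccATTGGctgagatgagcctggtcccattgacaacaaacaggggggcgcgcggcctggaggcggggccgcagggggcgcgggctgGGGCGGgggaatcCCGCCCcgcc
HMGCS1, chr5:43313413-43313612, minus strand: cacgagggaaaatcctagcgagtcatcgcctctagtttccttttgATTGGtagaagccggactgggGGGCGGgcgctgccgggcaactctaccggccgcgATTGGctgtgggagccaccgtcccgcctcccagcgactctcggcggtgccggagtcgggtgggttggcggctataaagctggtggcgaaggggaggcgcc
INSIG1, chr7:155297678-155297877, plus strand: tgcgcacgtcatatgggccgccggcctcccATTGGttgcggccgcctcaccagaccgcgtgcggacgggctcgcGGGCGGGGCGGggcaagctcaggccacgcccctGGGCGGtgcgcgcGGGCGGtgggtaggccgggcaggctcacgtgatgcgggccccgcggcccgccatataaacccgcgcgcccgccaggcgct
CYP51A1, chr7:92134478-92134677, minus strand: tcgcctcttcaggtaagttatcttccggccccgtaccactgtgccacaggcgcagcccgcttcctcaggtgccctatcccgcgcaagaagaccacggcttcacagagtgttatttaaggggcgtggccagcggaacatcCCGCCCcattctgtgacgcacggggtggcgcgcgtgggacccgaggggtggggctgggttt
LSS, chr21:46228775-46228974, minus strand: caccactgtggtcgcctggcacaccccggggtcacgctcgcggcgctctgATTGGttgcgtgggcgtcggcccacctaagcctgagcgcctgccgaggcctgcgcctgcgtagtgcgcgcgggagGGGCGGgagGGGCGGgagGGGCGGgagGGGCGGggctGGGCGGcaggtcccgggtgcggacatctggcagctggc

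In windows of 250 bases before to 50 bases after the start, 30 of the 34 genes had a sequence to search. ACAT2, FDFT1, SQLE and FASN had none. The sterol element core was found in 1 of the 30, SREBF2, 133 bases before the start, and in 1.15% of 27305 promoters. The NF-Y box was in 16 of 30 (53.3%), against 35.7% of all promoters and 37.3% of those of genes kept here. The Sp1 box was in 25 of 30 (83.3%), against 44.6% of all promoters and 71.2% of those kept. HMGCS1 and LSS both carry an NF-Y box and an Sp1 box. As deposited, HMGCS1 was lower in RIPK2 than in Vector and LSS was not. With the trend on transcript GC content described below removed, they differed by -0.64 and -0.23. A match is a string of letters and not a measured binding site, and a missing match says only that the letters are not in that window.

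Set against Vector, most of the genes stood lower in the RIPK2 and RIPK3 libraries and higher in Wnt3a and RIPK4, and were nearly level in RIPK1. As deposited, the 9 genes of fatty acid synthesis were divided, with 5 above and 4 below Vector in both RIPK2 and RIPK3. Differences are of log2(RPKM + 1), on which a gene was counted at 1.5-fold or 2-fold. This scale understates differences of genes with low values. In RIPK2, 9 of 34 genes were at least 1.5-fold lower, where 6.52% of all kept genes were, and 0 were 1.5-fold higher, where 7.56% were. In RIPK3, 5 of 34 were at least 1.5-fold lower (3.36% of all kept genes) and 0 higher (6.02%). RNA of whole cultures cannot tell fewer cells with a transcript from less of it per cell.

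In RIPK4 the counts ran the other way, with 5 of 34 genes at least 1.5-fold higher, where 4.92% of all kept genes were, and 0 lower (3.08%). In Wnt3a, 8 were at least 1.5-fold higher, where 7.95% were, and 2 lower, where 8.87% were. RIPK1 had 0 in either direction, with 0.901% of all kept genes higher and 1.76% lower. At 2-fold, 1 gene was lower in RIPK2, CYP51A1, where 0.699% of all kept genes were. No other of the 34 genes was 2-fold apart from Vector. Of all kept genes, 0.673% were 2-fold higher and 1.43% lower in Wnt3a, 0.295% and 0.547% in RIPK1, 1.47% and 0.581% in RIPK3, and 0.396% and 0.387% in RIPK4, and 1.59% were higher in RIPK2. The median difference of the 34 genes was 0.35 in Wnt3a, 0.10 in RIPK1, -0.26 in RIPK2, -0.20 in RIPK3 and 0.24 in RIPK4. The medians of all kept genes lay between -0.01 and 0.05. These 5 comparisons share the Vector library.

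**Figure D1:**
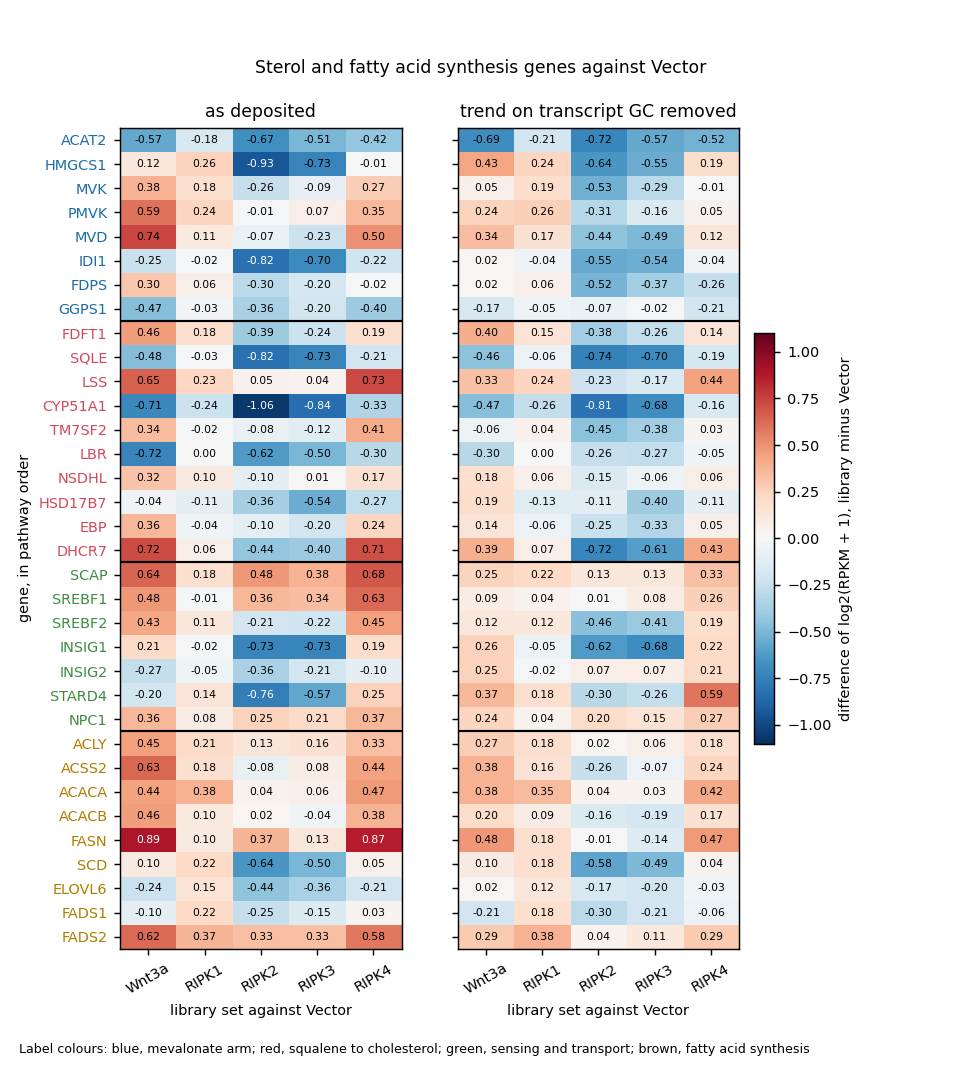
Differences of log2(RPKM + 1) from Vector for the 34 genes in pathway order (rows) and the 5 other libraries (columns), as deposited on the left and with the trend on transcript GC content removed on the right. Red is higher and blue lower than Vector; the RIPK2 and RIPK3 columns are blue for most sterol genes in both panels, with 25 and 23 of 34 genes below 0 on the left and 27 in each on the right.

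Differences followed the GC content of the transcripts in every library but RIPK1. Across 11779 genes, Spearman's rho between GC content and the difference from Vector was 0.693 in Wnt3a, 0.663 in RIPK2, 0.544 in RIPK3, 0.667 in RIPK4 and -0.0816 in RIPK1. Among the 34 genes, which share these libraries, it was 0.817, 0.746, 0.673, 0.784 and 0.234 in the same order. The genes span 34.2% to 65.3% GC, STARD4 being lowest and FASN highest. A smooth trend on GC was therefore fitted across all genes and subtracted. The medians were then 0.20 in Wnt3a, 0.10 in RIPK1, -0.28 in RIPK2, -0.26 in RIPK3 and 0.13 in RIPK4. At 1.5-fold, 6 genes were then lower in RIPK2, where 2.87% of all genes with a GC value were, and 4 in RIPK3 (2.45%), and 0 were higher in either (3.87% and 3.97%). In RIPK4, 1 was higher, STARD4 (1.51%), and 0 lower (1.8%), and in Wnt3a 0 were higher (2.61%) and 1 lower, ACAT2 (3.94%), neither gene having been counted there before the removal. The 6 genes in RIPK2 were ACAT2, HMGCS1, SQLE, CYP51A1, INSIG1 and DHCR7, and the 4 in RIPK3 were SQLE, CYP51A1, INSIG1 and DHCR7; DHCR7 was counted in neither before it. RIPK1 had 0 in both directions (0.713% and 1.72%). At 2-fold, 0 were lower in RIPK2 (0.442%). The part of GC content in the differences of single genes was not tested.

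**Figure D2:**
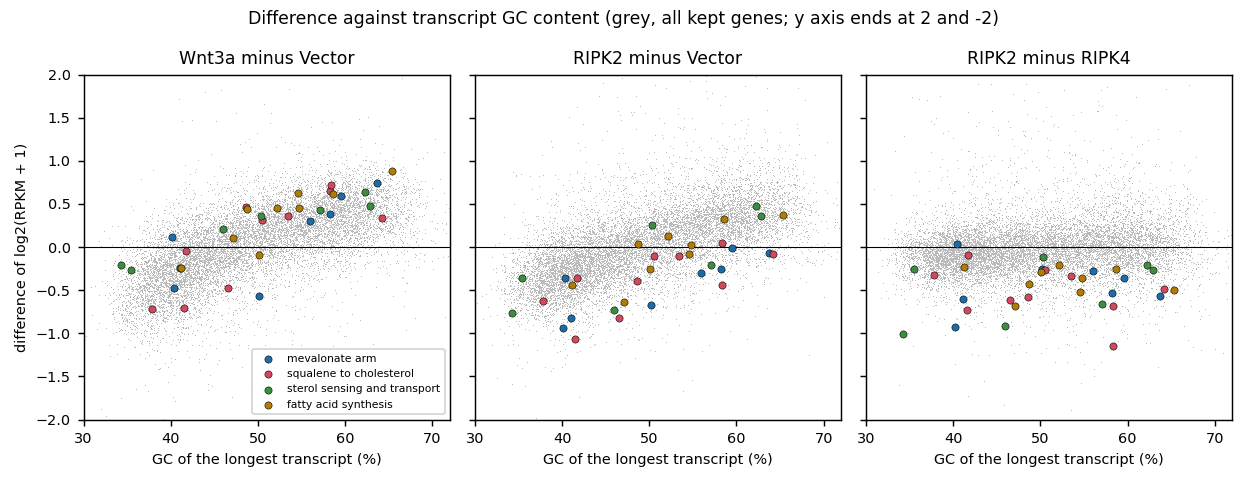
GC content of the transcript (x axis, percent) against the difference of log2(RPKM + 1) (y axis) for all kept genes (grey) and the 34 genes (coloured by group), for Wnt3a and RIPK2 against Vector and for RIPK2 against RIPK4. The slope seen in both comparisons with Vector is weaker between RIPK2 and RIPK4, where Spearman's rho is 0.172 across all genes and 0.0536 across the 34 genes.

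The mevalonate arm begins with ACAT2, which joins acetyl-CoA units, and HMGCS1, which makes HMG-CoA. HMGCS1 stood at 55.5 RPKM in Wnt3a, 61.0 in RIPK1, 26.2 in RIPK2, 30.3 in RIPK3, 50.7 in RIPK4 and 50.9 in Vector. RIPK2 and RIPK3 thus lay below the other 4 libraries, which held 50.7 to 61.0 RPKM. The ratio to Vector was 1.95-fold lower in RIPK2 (1.83 to 2.06) and 1.68-fold lower in RIPK3 (1.59 to 1.78). The ranges in brackets here and below are 95% intervals of the ratio of RPKM; they cover counting error only and compare libraries, not conditions. With GC removed the differences of HMGCS1 were -0.64 in RIPK2 and -0.55 in RIPK3. An antisense gene covers 19.9% of the exon bases of HMGCS1, and the use of strand in counting is not given.

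IDI1, which isomerises isopentenyl pyrophosphate, also had RIPK2 and RIPK3 as its lowest libraries. It had 22.8 RPKM in Wnt3a, 26.9 in RIPK1, 15 in RIPK2, 16.4 in RIPK3, 23.3 in RIPK4 and 27.3 in Vector. It was 1.82-fold lower in RIPK2 (1.68 to 1.97) and 1.66-fold lower in RIPK3 (1.54 to 1.80) than in Vector. With GC removed it differed by -0.55 in RIPK2 and -0.54 in RIPK3, both short of 1.5-fold. ACAT2 had 4.82 RPKM in Wnt3a, 6.62 in RIPK1, 4.40 in RIPK2, 5.07 in RIPK3, 5.43 in RIPK4 and 7.62 in Vector. All 5 other libraries were below Vector, RIPK2 by 1.73-fold (1.5 to 2). ACAT2 is uncertain, because its exons overlap TCP1 and SOD2 on the opposite strand and the use of strand in counting is not given.

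MVD, which decarboxylates mevalonate pyrophosphate, was highest in Wnt3a. It stood at 19.2 RPKM in Wnt3a, 12 in RIPK1, 10.5 in RIPK2, 9.27 in RIPK3, 16.1 in RIPK4 and 11.1 in Vector. Wnt3a was 1.73-fold above Vector (1.55 to 1.93), and RIPK3 was 1.19-fold below it (1.05 to 1.35). PMVK, which phosphorylates phosphomevalonate, had 31 RPKM in Wnt3a, 24.1 in RIPK1, 20.1 in RIPK2, 21.3 in RIPK3, 26.2 in RIPK4 and 20.2 in Vector. It was 1.53-fold higher in Wnt3a (1.36 to 1.73), and in RIPK2 its ratio to Vector had an interval that holds 1. MVD has 63.7% GC and PMVK 59.5%, and with GC removed their Wnt3a differences were 0.34 and 0.24.

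The remaining genes of this arm stayed within 1.5-fold of Vector in all 5 libraries. Mevalonate kinase MVK ranged over 3.72 to 6.34 RPKM and FDPS, which makes farnesyl pyrophosphate, over 79.9 to 122 RPKM, each lowest in RIPK2 and highest in Wnt3a. FDPS is uncertain, since it has 8 annotated pseudogenes and an antisense gene over 28.9% of its exon bases. GGPS1, which leads away from sterols to geranylgeranyl pyrophosphate, ranged over 7.22 RPKM in Wnt3a to 10.4 RPKM in Vector. It shares 11.3% of its exon bases with TBCE on the same strand. As a group the 8 genes summed to 269 RPKM in Wnt3a, 249 in RIPK1, 168 in RIPK2, 181 in RIPK3, 232 in RIPK4 and 231 in Vector. With GC removed all 8 were below 0 in RIPK2 (median -0.52) and in RIPK3 (median -0.43).

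**Figure D3:**
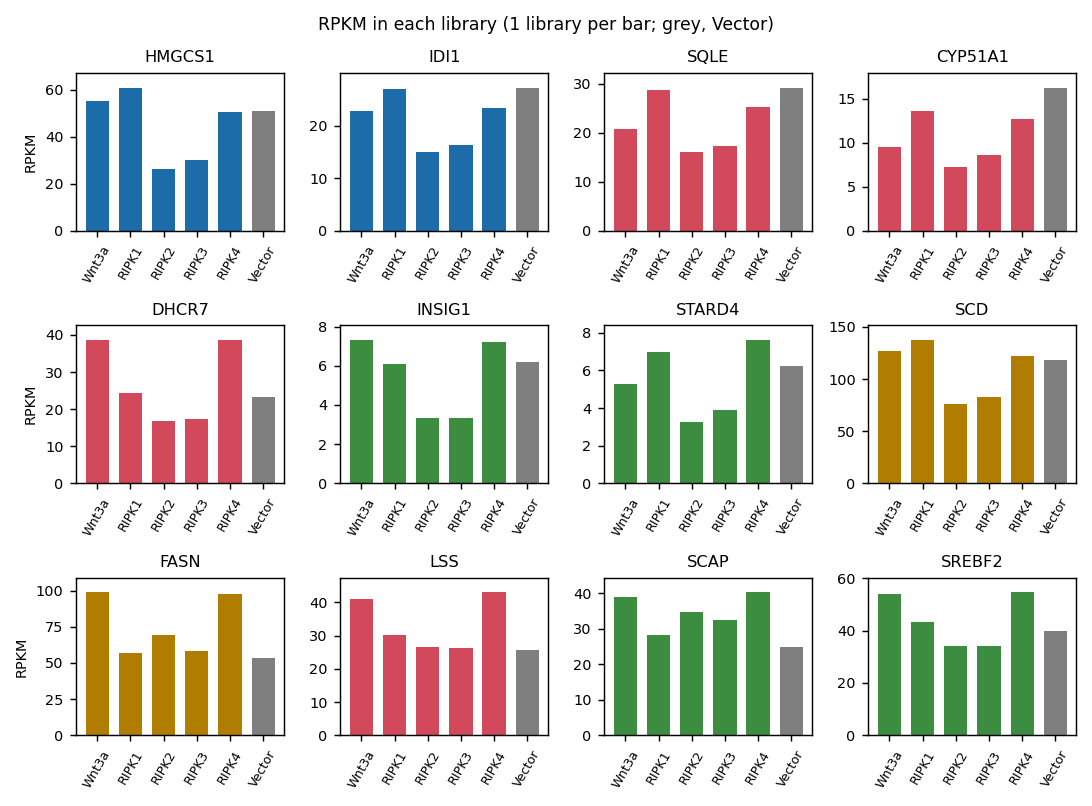
RPKM of 12 of the genes (1 panel each, y axis from 0) in the 6 libraries, with Vector on the right and 1 library per bar, so that no error bar can be drawn. HMGCS1, INSIG1 and STARD4 are lowest in RIPK2 and RIPK3, as is CYP51A1, which is highest in Vector at 16.3 RPKM; FASN is highest in Wnt3a and RIPK4 at 99.0 and 97.7 RPKM.

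Beyond the mevalonate arm, CYP51A1, the lanosterol demethylase, showed the largest difference from Vector of any of the 34 genes. It had 9.55 RPKM in Wnt3a, 13.7 in RIPK1, 7.27 in RIPK2, 8.68 in RIPK3, 12.8 in RIPK4 and 16.3 in Vector. Vector was thus its highest library and RIPK2 its lowest. It was 2.24-fold lower in RIPK2 (2.02 to 2.48), 1.88-fold lower in RIPK3 (1.70 to 2.07) and 1.70-fold lower in Wnt3a (1.55 to 1.88). With GC removed the differences were -0.81, -0.68 and -0.47. CYP51A1 has 3 processed pseudogenes that could share its reads.

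Squalene epoxidase SQLE had 20.7 RPKM in Wnt3a, 28.7 in RIPK1, 16.1 in RIPK2, 17.3 in RIPK3, 25.2 in RIPK4 and 29.2 in Vector. RIPK2 was 1.82-fold lower (1.68 to 1.98) and RIPK3 1.69-fold lower (1.56 to 1.84) than Vector, and the interval of the ratio between RIPK1 and Vector holds 1. FDFT1, the squalene synthase just before it in the pathway, had 63.1 RPKM in Wnt3a, 51.8 in RIPK1, 34.4 in RIPK2, 38.4 in RIPK3, 51.9 in RIPK4 and 45.5 in Vector. Its RIPK2 value was 1.32-fold below Vector (1.25 to 1.39) and its Wnt3a value 1.39-fold above (1.33 to 1.45). The genes on either side of squalene therefore had RIPK2 and RIPK3 as their lowest libraries, and differed in the place of Wnt3a.

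DHCR7, a reductase of the last steps of the pathway, split the libraries into 3 pairs. It stood at 38.7 RPKM in Wnt3a, 24.3 in RIPK1, 16.9 in RIPK2, 17.3 in RIPK3, 38.6 in RIPK4 and 23.2 in Vector. Wnt3a and RIPK4 formed a high pair, RIPK1 and Vector lay between, and RIPK2 and RIPK3 were lowest. It was 1.67-fold higher in Wnt3a (1.55 to 1.80) and 1.66-fold higher in RIPK4 (1.54 to 1.79), and 1.38-fold lower in RIPK2 (1.26 to 1.51). With GC removed its differences were 0.39 in Wnt3a, -0.72 in RIPK2, -0.61 in RIPK3 and 0.43 in RIPK4.

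LSS, which closes squalene epoxide into lanosterol, was high in the same pair. It had 40.9 RPKM in Wnt3a, 30.3 in RIPK1, 26.6 in RIPK2, 26.4 in RIPK3, 43.1 in RIPK4 and 25.7 in Vector. RIPK4 was 1.68-fold (1.59 to 1.77) and Wnt3a 1.59-fold (1.51 to 1.68) above Vector, and the RIPK2 and RIPK3 intervals hold 1. With GC removed LSS differed by 0.33 in Wnt3a, -0.23 in RIPK2, -0.17 in RIPK3 and 0.44 in RIPK4, all short of 1.5-fold. TM7SF2 and LBR, sterol reductases that act on the same bond, stood in different orders. TM7SF2 had 30.3 RPKM in Wnt3a, 23.3 in RIPK1, 22.3 in RIPK2, 21.8 in RIPK3, 31.8 in RIPK4 and 23.7 in Vector. LBR, which also binds lamins at the inner nuclear membrane, had 29.7 RPKM in Wnt3a, 49.8 in RIPK1, 31.9 in RIPK2, 34.7 in RIPK3, 40.1 in RIPK4 and 49.6 in Vector. LBR was 1.67-fold lower in Wnt3a (1.58 to 1.77) and 1.55-fold lower in RIPK2 (1.48 to 1.64). TM7SF2 has 64.2% GC and LBR 37.8%, and with GC removed their differences in Wnt3a were -0.06 and -0.30 and in RIPK2 -0.45 and -0.26.

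NSDHL, which helps to remove methyl groups from the ring, ranged over 19.5 to 26.3 RPKM. EBP, a sterol isomerase, ranged over 34.4 to 51.2 RPKM, lowest in RIPK3 and highest in Wnt3a. HSD17B7, a keto reductase of the same pathway, ranged over 0.909 to 1.78 RPKM and is uncertain, being low and having 2 pseudogenes. The 10 genes after the mevalonate arm summed to 312 RPKM in Wnt3a, 284 in RIPK1, 213 in RIPK2, 221 in RIPK3, 315 in RIPK4 and 275 in Vector. With GC removed all 10 were below 0 in RIPK2 (median -0.32) and in RIPK3 (median -0.35), while 6 of 10 were above 0 in Wnt3a and in RIPK4.

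Genes that sense or move sterols did not share 1 direction against Vector as deposited. With GC removed all 7 were above 0 in Wnt3a and in RIPK4, while 4 were above and 3 below in RIPK2 and RIPK3. INSIG1, itself a well-known SREBP target, had 7.33 RPKM in Wnt3a, 6.11 in RIPK1, 3.35 in RIPK2, 3.35 in RIPK3, 7.22 in RIPK4 and 6.2 in Vector. RIPK2 and RIPK3 were both 1.85-fold lower than Vector (1.55 to 2.22 and 1.54 to 2.22). INSIG2, its paralog, had 4.87 RPKM in Wnt3a, 5.84 in RIPK1, 4.52 in RIPK2, 5.11 in RIPK3, 5.60 in RIPK4 and 6.06 in Vector. With GC removed INSIG1 differed by -0.62 in RIPK2 and -0.68 in RIPK3, and INSIG2 by 0.07 in both.

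STARD4, a carrier that moves cholesterol through the cytosol, had 5.30 RPKM in Wnt3a, 6.99 in RIPK1, 3.28 in RIPK2, 3.89 in RIPK3, 7.63 in RIPK4 and 6.25 in Vector. It was 1.91-fold lower in RIPK2 (1.68 to 2.16) and 1.61-fold lower in RIPK3 (1.42 to 1.81). STARD4 has the lowest GC content of the 34 genes. With GC removed it differed by -0.30 in RIPK2 and 0.59 in RIPK4, just past 1.5-fold, where as deposited it differed by 0.25. NPC1, which exports cholesterol out of lysosomes, ranged over 7.31 RPKM in Vector to 9.72 RPKM in RIPK4.

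As deposited, SREBF2 fell into the same 3 pairs as DHCR7, with a smaller spread. It had 53.9 RPKM in Wnt3a, 43.1 in RIPK1, 34.3 in RIPK2, 34.1 in RIPK3, 54.7 in RIPK4 and 39.8 in Vector. RIPK4 was 1.38-fold above Vector (1.32 to 1.43) and RIPK2 1.16-fold below it (1.11 to 1.21). SREBF1 had 10.5 RPKM in Wnt3a, 7.23 in RIPK1, 9.66 in RIPK2, 9.47 in RIPK3, 11.8 in RIPK4 and 7.29 in Vector. Unlike SREBF2, it was above Vector in RIPK2 (1.33-fold, 1.2 to 1.46) and RIPK3 (1.30-fold, 1.18 to 1.43), and highest in RIPK4 (1.62-fold, 1.47 to 1.78). SCAP had 39.1 RPKM in Wnt3a, 28.1 in RIPK1, 34.9 in RIPK2, 32.6 in RIPK3, 40.4 in RIPK4 and 24.8 in Vector. SCAP was lowest in Vector, RIPK4 being 1.63-fold (1.54 to 1.73) and RIPK2 1.41-fold (1.33 to 1.49) above it. SREBF1 and SCAP have 62.8% and 62.3% GC, and with GC removed their RIPK2 differences were 0.01 and 0.13 and their RIPK4 differences 0.26 and 0.33, short of 1.5-fold. SREBF2 differed by 0.12 in Wnt3a, 0.12 in RIPK1, -0.46 in RIPK2 and 0.19 in RIPK4 with GC removed. As deposited it differed by 0.43, 0.11, -0.21 and 0.45 in the same order. With GC removed, Wnt3a thus no longer stood apart from RIPK1 for this gene.

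Fatty acid synthesis was led by FASN, the synthase that builds palmitate. It had 99.0 RPKM in Wnt3a, 57.0 in RIPK1, 69.0 in RIPK2, 58.1 in RIPK3, 97.7 in RIPK4 and 53.1 in Vector. Wnt3a and RIPK4 stood apart from the rest, 1.86-fold (1.81 to 1.92) and 1.84-fold (1.79 to 1.89) above Vector. The intervals of FASN, ACLY, ACACA and SCD rest on approximate reads. FASN has the highest GC content of the 34 genes, and with GC removed its differences were 0.48 in Wnt3a and 0.47 in RIPK4, below 1.5-fold.

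SCD, which desaturates stearate to oleate, stood in another order. It had 127 RPKM in Wnt3a, 138 in RIPK1, 75.5 in RIPK2, 83.0 in RIPK3, 122 in RIPK4 and 118 in Vector. RIPK2 was 1.56-fold (1.52 to 1.61) and RIPK3 1.42-fold (1.38 to 1.46) below Vector, and the other 4 libraries held 118 to 138 RPKM. With GC removed SCD differed by -0.58 in RIPK2, just short of 1.5-fold. FADS2, a desaturase of polyunsaturated fatty acids, had 94.4 RPKM in Wnt3a, 79.3 in RIPK1, 76.9 in RIPK2, 77.0 in RIPK3, 91.7 in RIPK4 and 61.1 in Vector. All 5 were above Vector, Wnt3a by 1.54-fold (1.49 to 1.61), or 0.29 on the log2 scale with GC removed. FADS1, its neighbour in the genome and partner in the same pathway, ranged over 25.8 to 36.2 RPKM and was lowest in RIPK2.

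The enzymes that supply the substrate came next. ACLY, which splits citrate into acetyl-CoA, had 116 RPKM in Wnt3a, 97.7 in RIPK1, 92.4 in RIPK2, 94.6 in RIPK3, 107 in RIPK4 and 84.3 in Vector. ACSS2, which makes acetyl-CoA out of acetate, had 13.6 RPKM in Wnt3a, 9.68 in RIPK1, 7.94 in RIPK2, 8.98 in RIPK3, 11.8 in RIPK4 and 8.44 in Vector. ACACA, the carboxylase that makes malonyl-CoA, had 21.9 RPKM in Wnt3a, 20.9 in RIPK1, 16.3 in RIPK2, 16.5 in RIPK3, 22.3 in RIPK4 and 15.8 in Vector. Of these, ACSS2 in Wnt3a passed 1.5-fold (1.61-fold higher, 1.44 to 1.81), and with GC removed its difference there was 0.38. ACACB, the mitochondrial form, ranged over 1.38 to 2.36 RPKM, and ELOVL6, an elongase, over 15.5 to 23.7 RPKM. The 9 genes summed to 521 RPKM in Wnt3a, 464 in RIPK1, 381 in RIPK2, 384 in RIPK3, 504 in RIPK4 and 395 in Vector. As deposited their median was 0.02 in RIPK2 and 0.06 in RIPK3. With GC removed the medians were -0.16 in RIPK2 and -0.14 in RIPK3, nearer 0 than those of the mevalonate arm. In each, 3 genes were then above 0 and 6 below.

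Set directly against RIPK4, a plasmid library of the same dose and time, RIPK2 and RIPK3 had lower values of almost all 34 genes. GGPS1 was the exception in both, at 0.04 and 0.20 on the log2 scale. Across all genes rho with GC content was 0.172 for RIPK2 and -0.176 for RIPK3 in these comparisons. In RIPK2, 10 genes were at least 1.5-fold lower, where 2.89% of all kept genes were, and 2 at least 2-fold lower (0.455%), while 0 were higher (3.07%). In RIPK3, 8 were at least 1.5-fold lower (2.27%) and 1 at least 2-fold lower (0.387%), while 0 were higher (2.65%). The medians over the 34 genes were -0.40 in RIPK2 and -0.39 in RIPK3, where those of all kept genes were -0.06 and -0.02. These comparisons share the RIPK4 library.

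DHCR7 had the largest log2 difference in both, being 2.29-fold lower in RIPK2 (2.11 to 2.48) and 2.22-fold lower in RIPK3 (2.05 to 2.41) than in RIPK4. STARD4 was 2.33-fold lower in RIPK2 (2.06 to 2.63) and 1.96-fold lower in RIPK3 (1.75 to 2.20). INSIG1 was 2.15-fold lower in both (1.81 to 2.56). HMGCS1 was 1.94-fold lower in RIPK2 (1.83 to 2.05) and 1.67-fold lower in RIPK3 (1.58 to 1.77). The 4 genes thus belong to 3 of the 4 groups. LSS, which as deposited was level with Vector in both, was 1.62-fold lower in RIPK2 (1.54 to 1.71) and 1.63-fold lower in RIPK3 (1.55 to 1.72) than in RIPK4. SREBF2 was 1.60-fold lower in RIPK2 (1.53 to 1.66) and 1.61-fold lower in RIPK3 (1.54 to 1.67). FASN was 1.42-fold lower in RIPK2 (1.38 to 1.45) and 1.68-fold lower in RIPK3 (1.64 to 1.73).

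**Figure D4:**
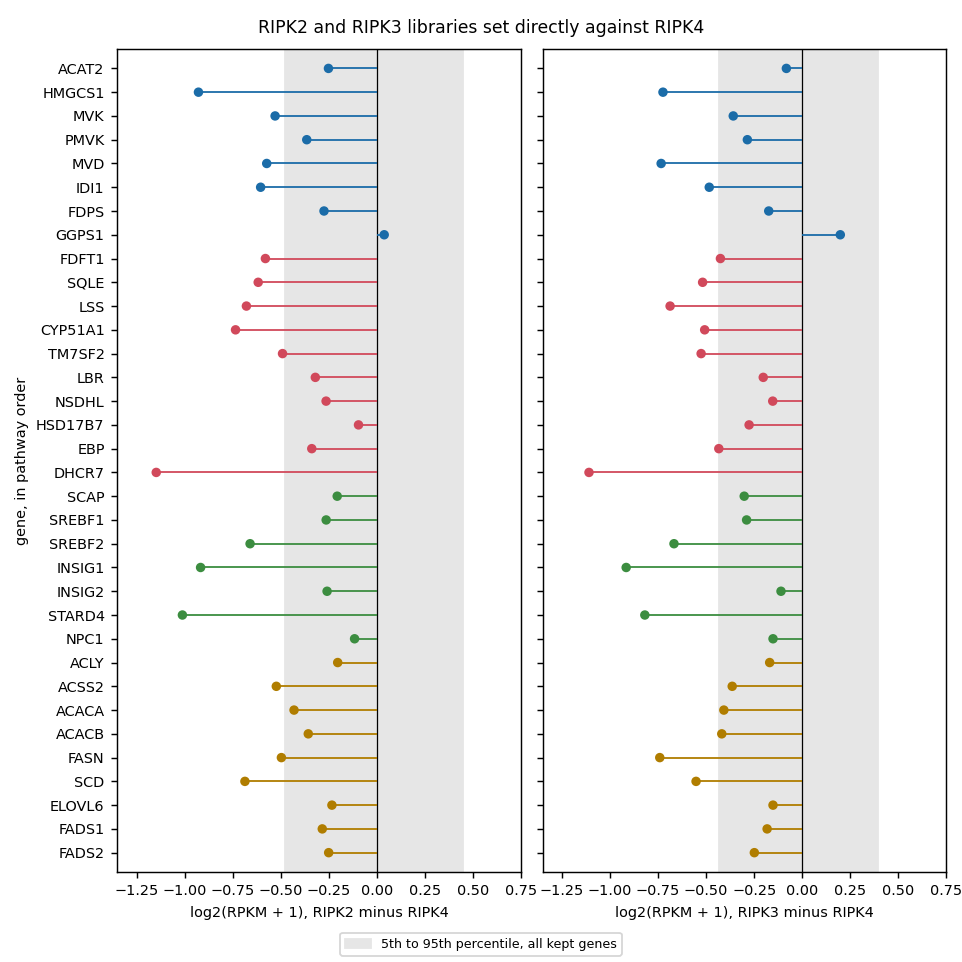
Differences of log2(RPKM + 1) between RIPK2 and RIPK4 (left) and between RIPK3 and RIPK4 (right) for the 34 genes in pathway order, coloured by group, with the band between the 5th and 95th percentile of all kept genes in grey. All but GGPS1 lie left of 0; DHCR7 is farthest in both panels, and the medians are -0.40 and -0.39.

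Between RIPK2 and RIPK3 themselves, 0 of 34 genes differed by 1.5-fold, where 1.09% of all kept genes were higher and 0.194% lower in RIPK2. Between RIPK4 and Wnt3a it was also 0, where 1.37% were higher and 0.665% lower in RIPK4. Against RIPK1, 9 genes were at least 1.5-fold lower in RIPK2 (6.38% of all kept genes) and 7 in RIPK3 (2.90%), comparisons in which rho with GC content was 0.667 and 0.582. Against the same RIPK1 library, 3 genes were at least 1.5-fold higher in RIPK4 (5.95%), and in Wnt3a 3 were higher (7.32%) and 1 lower (6.65%). Against Wnt3a, 12 were lower in RIPK2 (4.34%) and 9 in RIPK3 (3.93%), where treatment and time differ too.

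Order among the plasmid libraries can be read without Vector. For 29 of 34 genes both RIPK2 and RIPK3 were below both RIPK1 and RIPK4, as were 27.3% of all kept genes, and for 0 both were above, where 20.5% of all genes were. For 18 genes both were below all 4 other libraries, against 13.9% of all genes. RIPK2 held the lowest value of 18 genes and RIPK3 of 6, so that either was lowest for 24 of 34, against 29.2% of all kept genes, and neither was highest for any of the 34 (25.6% of all genes). Wnt3a was highest for 14 genes, against 23.3% of all kept genes, and RIPK4 for 8, against 11%. This order was chosen after the values were seen.

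Sterol genes outside the 34 were looked at from a separate list of further enzymes and of SREBP machinery, of which 16 of 20 were in the table and kept. Of these, 2 were at least 1.5-fold lower than Vector in RIPK2, where 6.52% of all kept genes were, and 2 in RIPK3 (3.36%). In both, 0 were higher (7.56% and 6.02%). SC5DL, a sterol desaturase now called SC5D, had 14 RPKM in Wnt3a, 22.9 in RIPK1, 11.6 in RIPK2, 12.8 in RIPK3, 16.4 in RIPK4 and 24.3 in Vector. MSMO1, the methylsterol oxidase, had 20.4 RPKM in Wnt3a, 26.6 in RIPK1, 14.6 in RIPK2, 16.9 in RIPK3, 27.5 in RIPK4 and 28.3 in Vector. SC5DL was 2.10-fold (1.89 to 2.33) and MSMO1 1.94-fold (1.76 to 2.13) lower in RIPK2 than in Vector, and with GC removed they differed by -0.66 and -0.55. The list median was -0.20 in RIPK2 and -0.09 in RIPK3, and -0.06 in both with GC removed.

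Among targets of the oxysterol receptor LXR and genes of cholesterol export, 14 of 16 were kept. In RIPK2 and in RIPK3, 3 were at least 1.5-fold higher than in Vector, where 7.56% and 6.02% of all kept genes were. In each, 1 was lower (6.52% and 3.36%), and the median was 0.06 in both. With GC removed, 2 were higher in each (3.87% and 3.97% of all genes with a GC value) and 1 lower (2.87% and 2.45%). The medians were then -0.11 in RIPK2 and -0.003 in RIPK3. The cholesterol exporter ABCA1 had 6.27 RPKM in Wnt3a, 7.55 in RIPK1, 11.7 in RIPK2, 13 in RIPK3, 7.88 in RIPK4 and 6.55 in Vector. It was 1.78-fold (1.66 to 1.91) higher in RIPK2 and 1.99-fold (1.86 to 2.13) higher in RIPK3. CH25H, which makes 25-hydroxycholesterol, had 0.392 RPKM in Wnt3a, 0.186 in RIPK1, 3.81 in RIPK2, 2.93 in RIPK3, 0.992 in RIPK4 and 0.632 in Vector. Its ratio to Vector was 6.02 in RIPK2 (3.48 to 11.2) and 4.64 in RIPK3 (2.65 to 8.69), on 101 and 77 reads against 15 in Vector. CYP27A1, another sterol hydroxylase, had 11.6 RPKM in Wnt3a, 7.27 in RIPK1, 13 in RIPK2, 13.1 in RIPK3, 11.5 in RIPK4 and 7.66 in Vector. It was 1.69-fold (1.47 to 1.95) higher in RIPK2 and 1.71-fold (1.48 to 1.97) higher in RIPK3. It was also 1.52-fold (1.31 to 1.76) higher in Wnt3a and 1.51-fold (1.30 to 1.75) higher in RIPK4. With GC removed the RIPK2 differences were 0.87 for ABCA1, 1.58 for CH25H and 0.38 for CYP27A1.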

How the data were processed

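The authors deposited RPKM values, 1 column per library and none pooled, per the file headers. GSNAP, DESeq and hg19 appear in the submitters' processing notes, without a version or a role. How reads were assigned to genes, with which annotation and with or without strand, is not given in the sources used. Groups came from the transfection field of the labels.

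RPKM was used as deposited. A mean RPKM of at least 1 was required, and differences were of log2(RPKM + 1), with calls at 1.5-fold and 2-fold. Counts over all genes omit the library's own kinase. Reads were recovered from whole-number steps in the RPKM values (11025 of 11881 kept genes) and otherwise approximated from GENCODE 29 lengths. This step was tested on simulated data. Ratios carry exact binomial 95% intervals. They cover counting error alone, because no group has a replicate. Without molecular identifiers reads are not independent molecules, so the intervals may be too narrow even for counting error. The GC trend was a lowess fit (fraction 0.3) over all kept genes with a GC value. Python 3.11.15, pandas 2.3.3, scipy 1.17.1 and statsmodels 0.14.6 were used.

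Members and lists were chosen with earlier results of these data known. Values in all 6 libraries are printed for members past 1.5-fold against Vector in any library and for 16 key enzymes and regulators (24 of 34 in all), and up to 4 genes are named of each further list. A few genes of those lists are not reported here. Alternatives were other pseudocounts, filters, scalings, thresholds and comparison libraries, and removal of the GC trend.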

Additional observations from a re-analysis of the deposited data

How the results depend on the processing

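The median difference of the 34 genes kept its sign under other pseudocounts, filters and scalings, with the GC trend removed and with RIPK1 in place of Vector, within 0.20 to 0.36 in Wnt3a, 0.07 to 0.11 in RIPK1, -0.33 to -0.25 in RIPK2, -0.29 to -0.20 in RIPK3 and 0.10 to 0.26 in RIPK4. Counts moved by the threshold: at 1.5-fold in place of 2-fold they were 8 higher and 2 lower in Wnt3a, 9 lower in RIPK2, 5 lower in RIPK3 and 5 higher in RIPK4. With the GC trend removed, the 1.5-fold counts were 0 higher and 1 lower in Wnt3a and 1 higher in RIPK4, and the 2-fold count in RIPK2 was 0. With RIPK1 in place of Vector, 3 were 1.5-fold higher and 1 lower in Wnt3a, and 3 higher in RIPK4. With RIPK4 in its place, chosen after seeing the data, the medians were -0.40 in RIPK2 and -0.39 in RIPK3, 2 were 2-fold lower in RIPK2, and in RIPK3 1 was 2-fold and 8 were 1.5-fold lower. The cause was not tested. Pseudocounts of 0.1 and 0.5, the filters and both rescalings left the remaining counts within 1.5 times, and no named gene past a threshold changed direction. No paired analysis was possible because each group has 1 library and the labels give no replicate numbers. Depth limits HSD17B7 most, with 44 reads in its lowest library, and no alternative replaces the missing replicates.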

Other observations

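Other branches of isoprenoid use held 15 genes. Of these, 3 were at least 1.5-fold lower in Wnt3a than in Vector (8.87% of all kept genes), 1 in RIPK2 (6.52%) and 0 in RIPK3 (3.36%), and 0 were higher in any of them. With GC removed, 1 was lower in Wnt3a and 0 in RIPK2. ZMPSTE24, a protease that trims farnesylated proteins, had 12.6 RPKM in Wnt3a, 22.7 in RIPK1, 20.2 in RIPK2, 22.2 in RIPK3, 19.6 in RIPK4 and 27.6 in Vector, and was 2.19-fold lower in Wnt3a (2 to 2.39). RABGGTB, a subunit of the enzyme that prenylates Rab proteins, had 30.4 RPKM in Wnt3a against 51.4 RPKM in Vector. Both have low GC content (38.0% and 37.3%), and with GC removed their differences in Wnt3a were -0.66 and -0.30.

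Genes of fatty acid activation, elongation and glycerolipid synthesis showed 1 gene at least 1.5-fold higher and 3 lower in RIPK2 among 16 kept of 29, where 7.56% and 6.52% of all kept genes were, with a median of -0.14. With GC removed 0 were higher and 1 lower, SLC25A1 (-0.63), with a median of -0.04. ACSL3, which activates fatty acids with coenzyme A, had 21 RPKM in Wnt3a, 27.5 in RIPK1, 14.5 in RIPK2, 16.0 in RIPK3, 22.4 in RIPK4 and 26.2 in Vector, 1.81-fold lower in RIPK2 (1.69 to 1.92). With GC removed ACSL3 differed by -0.45 in RIPK2, short of 1.5-fold. FADS3, a desaturase beside FADS1 and FADS2, had 16.7 RPKM in RIPK2, 15.7 in RIPK3 and 9.93 in Vector. Fatty acid oxidation, the opposing pathway, had 18 of 22 genes kept, 1 higher and 1 lower at 1.5-fold in RIPK2 (7.56% and 6.52% of all kept genes), with a median of 0.04. CPT1B, a form of the transferase that brings fatty acids into mitochondria, was 1.58-fold higher in RIPK2 (1.43 to 1.74), at 18.8 RPKM against 11.9 RPKM in Vector, and differed by 0.36 with GC removed. ACADM, the medium-chain dehydrogenase, was 1.88-fold lower in RIPK2 (1.73 to 2.04), at 14.5 RPKM against 27.2 RPKM in Vector, and differed by -0.59 with GC removed. Vector was its highest library. ACADM was also 1.77-fold lower in Wnt3a (1.63 to 1.92), 1.57-fold in RIPK3 (1.45 to 1.69) and 1.37-fold in RIPK4 (1.27 to 1.48).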
